A study of Macaca fascicularis with 10 samples.

Results

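The comparison set later against earlier passages of MPH1, a haploid parthenogenetic embryonic stem cell line of the cynomolgus monkey (Macaca fascicularis). Its 4 arrays are those titled MPH1, of 10 arrays in the series, and carry the description codes M1 and M2. Code M1 was sampled at passages P8 and P11, and code M2 at P7 and P9. Each later array was set against the earlier array of its own code (P11 against P8, P9 against P7), and genes that moved the same way in both pairs were reported. The labels give all 4 arrays as haploid by karyotype, grown on a feeder layer in medium with Y27635 and Thiazovivin (both kinase inhibitors), so the earlier arrays carry every agent that the later arrays do. The 6 other arrays were 1 of MPH2, a second haploid line (P4), 3 of diploid embryonic stem cells made after sperm injection into the egg (ICSI, line MES1 at P12, MES2 and MES3 at P4), and 2 of diploid cells labelled female somatic fibroblasts (P14 and P15).

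MPH1 is 1 line name with 2 codes, the sources used here do not say what a code stands for, and ploidy at each passage was not analysed here. Nothing in the labels ties the arrays to separate cultures, so p-values measure only the spread between these samples, which may be technical. With 2 pairs, each test had 1 residual degree of freedom and took most of its error estimate from all probe sets together. The sources used here do not give the species of the feeder cells, and the probes are those of the rhesus macaque.

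Parthenogenetic haploid embryonic stem cells come from an egg activated without a sperm, so that only a maternal genome is present. In culture such cells tend to become diploid, and lines are kept haploid by repeated sorting. Primate embryonic stem cells are commonly grown on a layer of feeder fibroblasts, which make collagens, proteoglycans and secreted signals. RNA of such a sample is bulk RNA, in which fewer cells of a type and less RNA per cell cannot be told apart.

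Signals were on the scale of the deposited table, where the trimmed mean of each array was 500. The median signal was 96.1 on P8 and 133 on P11 of code M1, and 77.9 on P7 and 95.8 on P9 of code M2, so it was higher on the later array of both pairs. P11 stood apart in its hybridisation controls, which averaged 11049 there against 4498 to 5886 on the other 3 arrays. Its profile was also the farthest from its partner: Pearson r across probe sets was 0.913 between P8 and P11 and 0.955 between P7 and P9. The earlier arrays of the 2 codes correlated at 0.961 and the later arrays at 0.934, as a description over probe sets that share arrays. A gene is said to be called, or to have risen or fallen, at an adjusted p under 0.05.

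The 4 arrays had the markers of pluripotent cells at high signals. POU5F1, the central pluripotency factor, read 33612 on P8 and 30209 on P11 of code M1, and 26436 on P7 and 27126 on P9 of code M2, against 40.6 and 80.0 on the fibroblast arrays. The summed signal of 6 measured pluripotent markers was 83206 and 78553 on the earlier arrays and 69751 and 75009 on the later arrays. Of the 6, NANOG did not set the cell types apart: it read 2083 and 1904 on the fibroblast arrays. Markers of fibroblasts or feeder cells were present as well and differed by passage. The sum of 5 measured markers (COL1A1, COL1A2, COL3A1, DCN and LUM) was 4619 on P8 and 24400 on P11, and 2158 on P7 and 31547 on P9. It was thus higher on both later arrays than on both earlier arrays and below the 143471 and 142911 of the fibroblast arrays. All 5 lay above the array median on the MPH1 arrays except COL3A1 on P7 (72.9). The part of such cells in the results below was not tested. The fibroblast arrays also had high epidermal markers: the sum of KRT1, KRTDAP and LORICRIN was 152384 and 151175 there. It was 244 and 376 on P8 and P11, and 184 and 182 on P7 and P9.

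DCN and COL1A2, which encode matrix proteins, and IL6 and CXCL8, which encode cytokines, were among the genes that rose with passage in both pairs, and H19, HAPLN1 and GABRP fell. Of 9823 genes tested, 75 rose (0.764% of genes) and 3 fell (0.0305%) by limma with Benjamini-Hochberg adjustment over 25335 probe sets. By probe set, 165 rose (0.651%) and 8 fell (0.0316%). With each array centred on its median signal, 181 probe sets were called higher and 239 lower, so the balance of rises over falls depends on the scaling. Called probe sets numbered 3 without the code as a block, and 0 with all 10 arrays in the limma fit or without a variance trend (1396 and 2597 at an unadjusted p under 0.05). With code M1 or code M2 left out, 0 were called (642 and 2341 unadjusted), but each side then has 1 array, which is assumed to vary like the ICSI stem cell and fibroblast arrays that gave the spread. At least 2-fold in both pairs, 230 genes were higher (2.34%) and 37 lower (0.377%). Of the called genes, 69 of the 75 and all 3 that fell were among these. Many of the 230 were dim: 144 lay above the array median on the later arrays alone, and with every signal under its array's median raised to that median 131 higher and 3 lower genes were left. After centring, the median gene shifted to -0.48 in code M1 and -0.31 in code M2 on the log2 scale, from -0.01 in both, and the higher share of the 2-fold genes was 62.1% in place of 86.1% (70.7% after quantile normalization).

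Many more genes moved a little. In both pairs 2859 genes were higher (29.1%), 3096 were lower (31.5%), and 3868 moved in opposite directions. Later and earlier arrays did not overlap for 1806 genes that were higher later (18.4%) and 2029 that were lower (20.7%). The 75 called higher genes were all among the former, so a lack of overlap adds no support to a call. Across genes, which are not independent replicates, the differences of the 2 pairs, which share no array, correlated at r = 0.390 (Spearman rho 0.295). The filter, which keeps genes above the median on both arrays of a side, bears on this value: without it r was 0.117. Within 4 equal classes of mean signal r lay between 0.313 and 0.406, and 157 of the 230 higher genes were in the dimmest class.

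**Figure D1:**
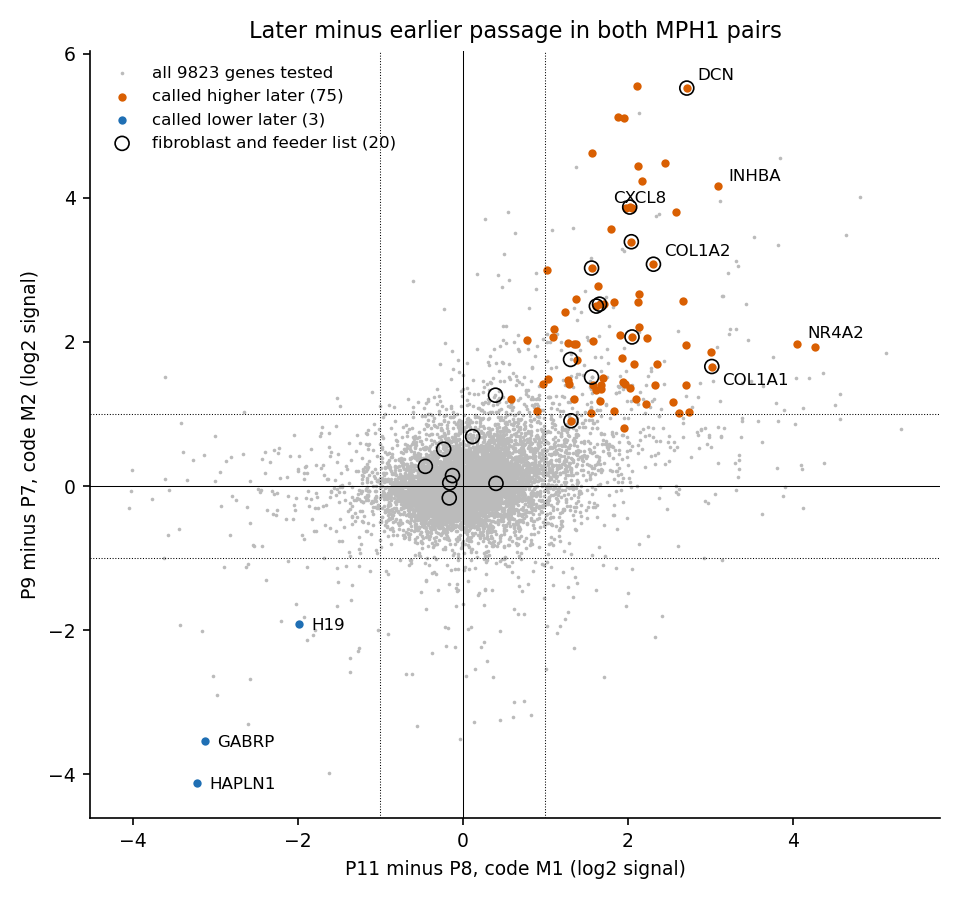
Each point is 1 of 9823 genes, with the log2 signal difference P11 minus P8 (code M1) on the x axis and P9 minus P7 (code M2) on the y axis. Orange points are the 75 genes called higher later and blue points the 3 called lower, circles mark the 20 tested genes of the fibroblast and feeder list, and dotted lines mark 2-fold. The called higher genes lie in the upper right, DCN and INHBA among them, and HAPLN1, GABRP and H19 lie in the lower left.

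Genes of the fibroblast and feeder list made up 10 of the 75 that rose, and 0 of the list were called without the block, with all 10 arrays, without a variance trend, or with either pair left out. Of 26 genes listed, 20 were tested: 15 were higher in both pairs and 1 lower, against 29.1% and 31.5% of all genes, 11 were at least 2-fold higher in both, against 2.34%, and 10 were called higher, against 0.764%. Averaging each gene's probe sets gave 17 higher and 13 at least 2-fold higher. The median difference of the 20 was 1.44 in code M1 and 1.59 in code M2 on the log2 scale, against -0.01 and -0.01 over all genes tested. After centring on array medians it was 0.97 and 1.29, with 12 higher and 5 lower in both pairs.

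DCN encodes decorin, a small proteoglycan that binds collagen fibrils (chromosome 11 of the RefSeq annotation). Its signal was 1149 on P8 and 7552 on P11, and 367 on P7 and 16850 on P9. DCN rose 6.57-fold in code M1 and 45.9-fold in code M2 (mean log2 difference 4.12 ± 0.47, limma moderated SE, limma adjusted p = 0.0023). The moderated SE draws mostly on all probe sets together and does not measure the agreement of the 2 pairs. For DCN the log2 differences of the pairs were 2.72 and 5.52 (SD 1.98). Of its 5 probe sets 4 were at least 2-fold higher in both pairs.

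COL1A2 encodes a chain of type I collagen (chromosome 3). It read 2480 on P8 and 12313 on P11, and 1418 on P7 and 11969 on P9. The rise was 4.97-fold and 8.44-fold (log2 difference 2.70 ± 0.20, limma moderated SE, limma adjusted p = 0.00034). COL1A1, the partner chain, read 163 on both earlier arrays, 1322 on P11 and 516 on P9, and rose 8.11-fold and 3.16-fold (limma adjusted p = 0.0092).

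COL6A3, a chain of type VI collagen, rose by nearly the same factor in both codes, 4.15-fold from 1987 to 8237 and 4.20-fold from 1104 to 4633 (limma adjusted p = 0.00043). LUM, which encodes the proteoglycan lumican, went from 693 to 2818 and from 137 to 2005. Both were among the 75 genes called higher.

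The other members that rose were S100A4 (a calcium binding protein of motile cells), LOX (which cross-links collagen), MMP2 (a gelatinase), FAP (a surface protease of activated fibroblasts) and THBS1 (thrombospondin). S100A4 went from 912 to 3760 and from 266 to 2786, and THBS1 from 4615 to 11461 and from 8830 to 16546. COL3A1 and TIMP3 were at least 2-fold higher in both pairs and did not pass (limma adjusted p = 0.16 and 0.0501). FN1, the fibronectin gene, was bright on all 4 arrays (15864 and 17240, 9371 and 15088) and did not pass, nor did the brightest probe sets of COL5A2, THBS2 and FBN1, whose log2 differences lay between -0.16 and 0.15. Probe sets of 2 of these genes disagreed: 2 dimmer ones of COL5A2, of type V collagen, rose (842 to 3083 and 271 to 1996, 718 to 3192 and 278 to 1643, limma adjusted p = 0.0018 and 0.00069), and 2 dimmer ones of FBN1, fibrillin, rose as well (limma adjusted p = 0.012 and 0.030).

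**Figure D2:**
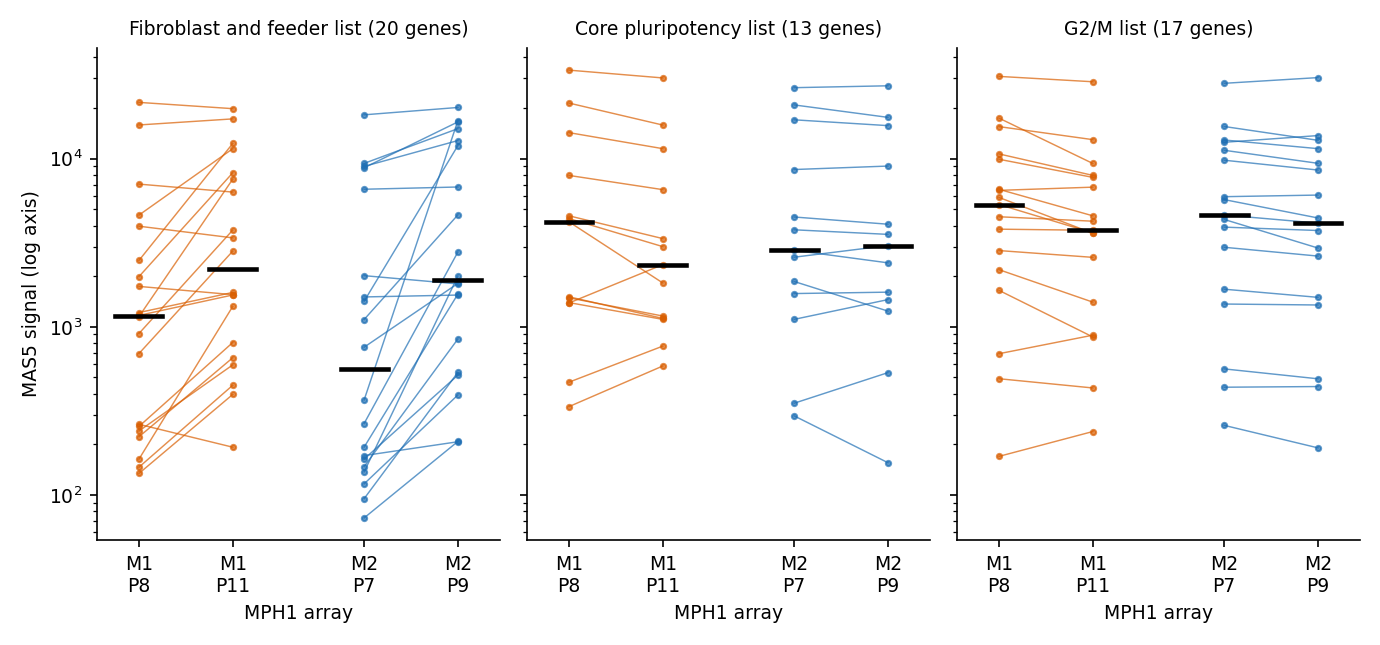
Each thin line joins the MAS5 signal (log axis) of 1 gene on the earlier and later array of code M1 (orange) or M2 (blue), for 3 gene lists, and black bars mark the median of the list on each array. Most of the 20 fibroblast and feeder genes run upward in both pairs. Of the 13 core pluripotency genes 2 were higher and 6 lower in both pairs, and of the 17 G2/M genes 1 was higher and 11 lower. Among all genes 29.1% were higher and 31.5% lower in both pairs.

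Genes of 4 secreted signals were among those named by rule that rose. INHBA, which encodes the subunit of activin A, read 671 on P8 and 5709 on P11, and 270 on P7 and 4860 on P9. It rose 8.51-fold and 18.0-fold (log2 difference 3.63 ± 0.25, limma moderated SE, limma adjusted p = 0.00034), and both of its probe sets were at least 2-fold higher. Activin is a signal that supports primate pluripotent cells.

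CXCL8, the chemokine interleukin 8, went from 229 to 1369 and from 137 to 1911 (limma adjusted p = 0.00080). IL6, the cytokine interleukin 6, went from 104 to 666 and from 111 to 656, a rise of 6.39-fold and 5.91-fold (limma adjusted p = 0.0023). CCL2, a monocyte chemokine, went from 271 to 1193 and from 103 to 650. In each of these 3 genes, as in all 75 called higher, the later arrays lay above the earlier ones with no overlap.

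Other genes of secreted proteins that rose, named after their values were seen, were the collagenase MMP1 (4148 to 18003 and 603 to 28352), the stromelysin MMP3, the cytokine IL1B, the hormone STC1 and the matrix protein TNC. IL1B went from 212 to 1160 and from 127 to 2844, STC1 from 1450 to 6543 and from 710 to 13331. The limma adjusted p of the 5 ran from 0.0023 to 0.015.

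The called genes stood on both sides of the fibroblast arrays of the series. Of the 75, 31 (41.3%) had signals on both later MPH1 arrays above both fibroblast arrays, against 4804 (48.9%) of all genes tested. Another 31 (41.3%) lay below both, against 3095 (31.5%). Of the 131 genes at least 2-fold higher later with dim signals raised, 74 (56.5%) were at least 2-fold higher on fibroblasts than on MES2 and MES3 (means). That held for 16.9% of all genes, and 8 of the 131 were at least 2-fold lower. Without members of the fibroblast list it was 64 of 120 (53.3%). IL6 read 99.4 and 60.2, CXCL8 45.7 and 46.9, and MMP1 195 and 183 on the fibroblast arrays, below both later MPH1 arrays. DCN (49727 and 48614), COL1A2 (63944 and 63905) and LUM (20862 and 20345) were above all 4 MPH1 arrays there. The labels do not relate these fibroblasts to the feeder cells of the stem cell cultures. Their arrays also had high epidermal markers, with KRT1 at 53895 and 53774, so they may not stand for fibroblasts alone.

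Many of these genes were also high on other arrays, most often on that of the diploid line MES1 at P12. The 131 genes that were at least 2-fold higher later with dim signals raised were at least 2-fold higher on MES1 than on MES2 (P4) in 110 cases, 84.0%, against 10.8% of all genes tested, and than on MES3 (P4) in 101 cases, 77.1% against 8.29%. On MPH2 (P4), an early passage, 61 of the 131 (46.6%) were at least 2-fold higher than on MES2, against 6.80% of all genes. On MES1, IL6 read 18889, INHBA 25075 and DCN 39481, and on MES2 39.0, 258 and 182. The summed fibroblast markers were 88481 on MES1, 1763 on MES2, 11528 on MES3 and 23886 on MPH2. Line, passage and feeder markers cannot be told apart among these arrays, of which MES1 also had high hybridisation controls (9120). The list was chosen on MPH1 arrays, and these shares carry no test.

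**Figure D3:**
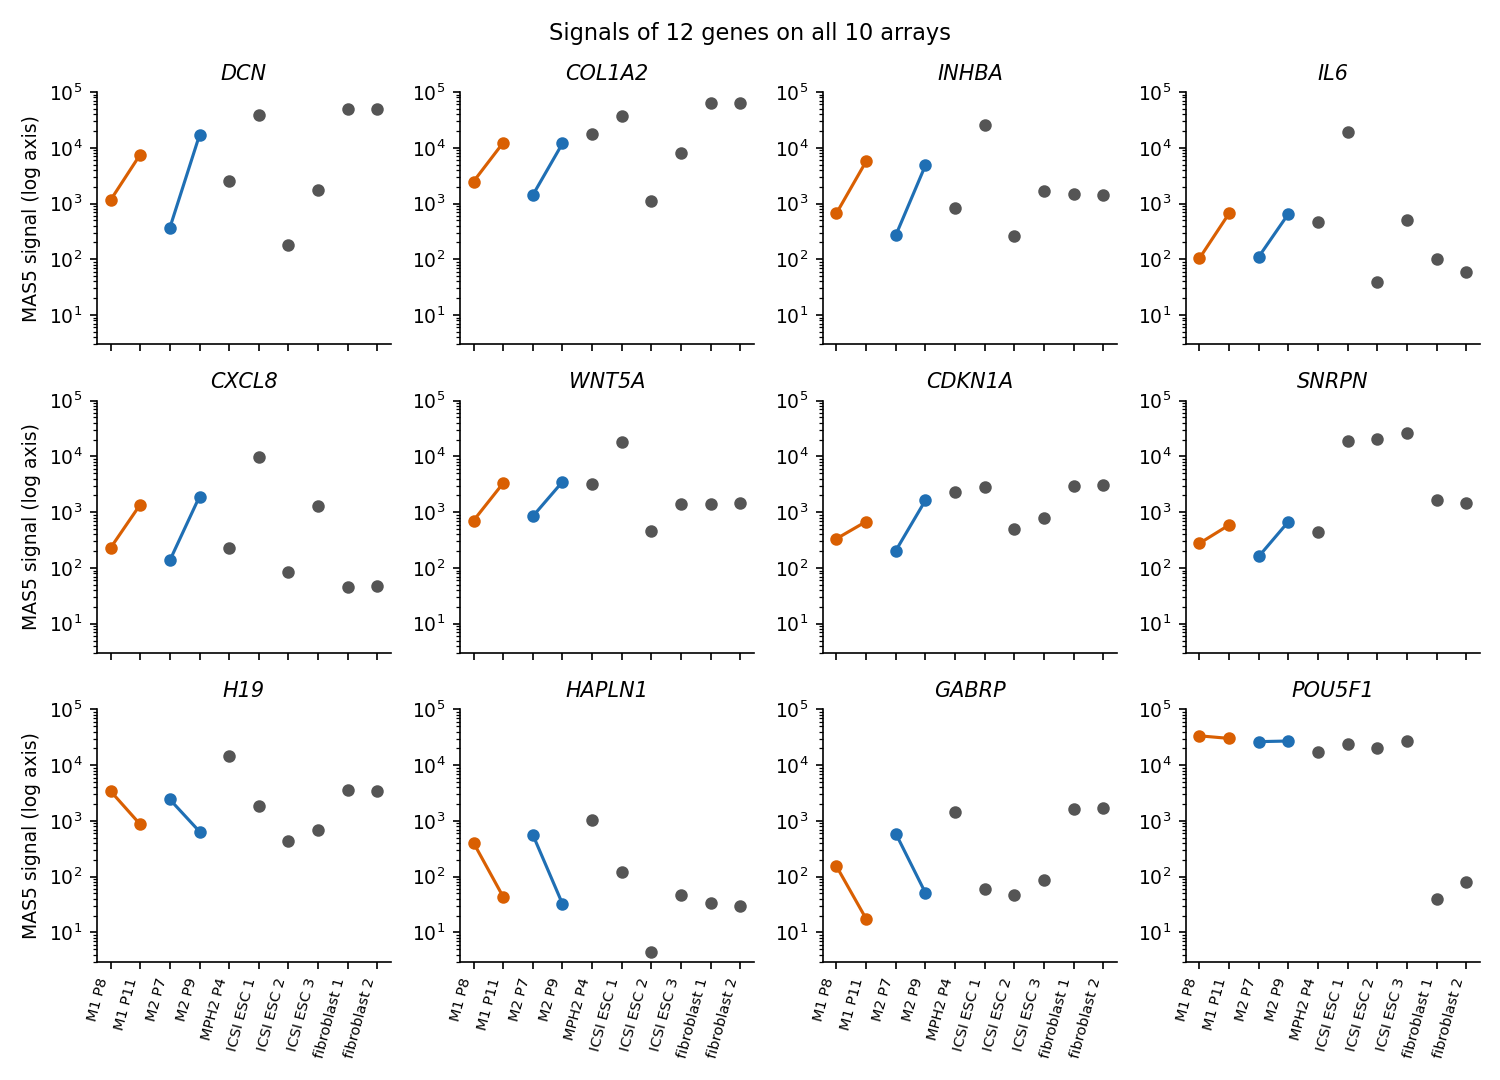
MAS5 signals (log axis) of 12 genes on all 10 arrays, with the MPH1 pairs of code M1 in orange and M2 in blue, joined from the earlier to the later passage, and the other arrays in grey. DCN, COL1A2, INHBA, IL6, CXCL8, WNT5A, CDKN1A and SNRPN run upward in both pairs, H19, HAPLN1 and GABRP run downward, and POU5F1 stays near its level.

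Further genes named by rule rose at similar factors in both codes. WNT5A, a secreted ligand of non-canonical Wnt signalling, went from 707 to 3322 and from 846 to 3515 (4.70-fold and 4.15-fold, limma adjusted p = 0.00062), with all 3 probe sets at least 2-fold higher. TWIST1, a transcription factor of mesenchyme, went from 577 to 1872 and from 513 to 1450. VIM, the intermediate filament vimentin, went from 12158 to 46310 and from 5969 to 20523 (limma adjusted p = 0.00036).

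CEBPB, a transcription factor of inflammatory genes, went from 2772 to 7085 and from 2987 to 6872. CRYAB, a small heat shock protein, rose 3.75-fold and 4.29-fold. The calcium binding S100A6, the lectin LGALS1, annexin ANXA1 and the tropomyosin TPM2 rose as well, S100A6 from 11617 to 48860 and from 3988 to 12906 and TPM2 by the least, 1.87-fold and 2.07-fold. Later and earlier arrays did not overlap in these 9 genes, as in all 75 called higher.

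Immediate early genes as a list did not move one way. Of 17 tested, 4 were higher and 4 lower in both pairs, against 29.1% and 31.5% of all genes. In all, 2 rose, against 0.764% of all genes. NR4A2, a nuclear receptor, read 206 and 174 on the earlier arrays and 3413 on P11 and 682 on P9, with 3 of 5 probe sets at least 2-fold higher in both pairs. JUND, an AP-1 subunit, rose 3.93-fold and 2.68-fold. FOS, MYC and ATF3 were lower in code M1 and higher in code M2 and did not pass.

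CDKN1A encodes the cell cycle inhibitor p21. It read 335 on P8 and 680 on P11, and 205 on P7 and 1641 on P9. It rose 2.03-fold and 8.01-fold (limma adjusted p = 0.048), and kept the call under 4 of 14 alternatives with a test.

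Imprinted genes are transcribed from 1 parental copy, so parthenogenetic cells are a case in which paternally expressed genes lack their active copy. SNRPN, a paternally expressed gene, read 277 on P8 and 591 on P11, and 161 on P7 and 680 on P9. It rose 2.13-fold and 4.22-fold (limma adjusted p = 0.046, and under 5 of 14 alternatives with a test), with both probe sets at least 2-fold higher. Its later signals stayed below the fibroblast arrays (1682 and 1459) and the ICSI stem cell arrays (18588 to 26541). Summed fibroblast markers were higher on the same later arrays, and their part in SNRPN was not tested. The 4 other paternally expressed genes tested (NDN, MEST, DLK1 and SGCE) did not pass.

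H19, a maternally expressed long non-coding RNA, fell in both pairs. Its representative probe set read 3432 on P8 and 867 on P11, and 2429 on P7 and 645 on P9. The ratio was 3.96-fold and 3.77-fold lower (log2 difference -1.95 ± 0.19, limma moderated SE, limma adjusted p = 0.0010). Later and earlier arrays did not overlap, as for 20.7% of all genes on the lower side. Its 2 other probe sets were dim, between 97.8 and 249, and did not pass. The dimmer was higher in both pairs (log2 difference 0.115 and 0.707), and the other hardly moved (-0.083 and -0.001). The fall of H19 thus rests on 1 of 3 probe sets. Across the other arrays H19 read 14625 on MPH2, where summed fibroblast markers were 23886, and 1862 on MES1, where they were 88481. It read 429 on MES2, 697.5 on MES3, and 3623 and 3510 on the fibroblast arrays. Of the 11 maternally expressed genes tested, H19 alone was called, where 0.764% of all genes were called higher and 0.0305% lower.

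HAPLN1, which encodes a link protein of hyaluronan matrix (chromosome 6), fell as well. It read 407 on P8 and 565 on P7 and lay under the array median on both later arrays (43.5 and 32.5). It was at least 3.06-fold lower in code M1 and at least 5.90-fold lower in code M2 with the later signals raised to the array median (limma adjusted p = 0.0057), and all 3 probe sets were at least 2-fold lower in both pairs. GABRP, a GABA receptor subunit expressed in amnion, read 153 and 17.5, then 593 and 51.0 (at least 1.16-fold and 6.19-fold lower, limma adjusted p = 0.045). It kept the call under 4 of 12 alternatives with a test. KRT7, a keratin of simple epithelia, read 214 and 19.95, then 173 and 45.5, and did not pass (limma adjusted p = 0.25).

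GABRP and KRT7 belong to the trophoblast and amnion list, of which 15 genes were tested. In both pairs 5 were higher and 7 lower, against 29.1% and 31.5% of all genes, and the median was -0.18 and -0.07. GABRP alone fell, against 0.0305% of all genes. GATA3, TFAP2A and VTCN1 did not pass. VTCN1, an immune checkpoint ligand made by placental cells, read 1472 and 1137, then 2208 and 1518.

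The largest ratios by the smaller of both pairs belonged to dim genes. LOC697178 read 5.62 and 158, then 8.68 and 139. FOXN4, a transcription factor of the retina, and the mucin MUC20 were similar, with later signals between 131 and 171. Their later signals lay near the array medians, none passed (limma adjusted p from 0.42 to 0.46), and with the earlier signals raised to the median each was at least 1.40-fold to 1.79-fold higher. Most of the 15 lower genes named by size were of the same kind: H19 was the only one of the 37 above the array median on all 4 arrays.

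None of the core pluripotency genes was called by limma. Of all genes 0.764% were called higher and 0.0305% lower, so 0 calls among the 13 tested says little about the list. An unadjusted p under 0.05 was reached by 4 of the 13, against 1091 of all 9823 genes. In both pairs 2 of the 13 were higher and 6 lower, against 29.1% and 31.5% of all genes. The median was -0.33 in code M1 and -0.09 in code M2. SOX2 read 14280 and 11468, then 17023 and 15719. NANOG was higher in both pairs (1385 and 2342, 1107 and 1451), but read 2083 and 1904 on the fibroblast arrays. DNMT3B, a DNA methyltransferase of pluripotent cells, was lower (21411 and 15843, 20873 and 17603). Neither NANOG nor DNMT3B was called (limma adjusted p = 0.32 and 0.41, unadjusted p = 0.014 and 0.034). LIN28B read 7948 and 6542, then 8616 and 9036.

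The naive state list, genes linked to the pre-implantation state, had 7 members tested. In both pairs 4 were higher and 0 lower, against 29.1% and 31.5% of all genes. By limma 0 were called, where 0.764% of all genes were called higher. An unadjusted p under 0.05 was reached by 4, against 1091 of all 9823 genes. The median of the list was 1.25 and 0.45, and 0.78 and 0.15 after centring on array medians. KLF4, a reprogramming factor, read 1240 and 5011, then 1626 and 2460 (limma adjusted p = 0.089). It read 26417 and 24687 on the fibroblast arrays, which also had high epidermal markers. TBX3 read 117 and 371, then 231 and 479 (limma adjusted p = 0.12).

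Most genes of cell division were lower in both pairs, and limma called 0 of them (2 G1/S and 3 G2/M genes at an unadjusted p under 0.05). Among all genes 0.0305% were called lower, and 1091 of 9823 had an unadjusted p under 0.05. Of 20 G1/S genes, 12 were lower and 2 higher in both pairs (median -0.20 and -0.16), and of 17 G2/M genes 11 were lower and 1 higher (median -0.26 and -0.17). Of all genes, 31.5% were lower in both pairs. CDK1, the kinase that drives mitosis, read 5335 and 3616, then 4350 and 2940 (limma adjusted p = 0.22). TOP2A, a topoisomerase of dividing cells, read 17421 and 9362, then 12911 and 11469. Genes of centrosome and spindle assembly had a median of -0.07 and -0.10 with 0 of 15 called by limma (0 at an unadjusted p under 0.05). Of 9 ribosomal protein genes 7 were higher in both pairs, which turned to 7 lower after centring on array medians.

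**Figure D4:**
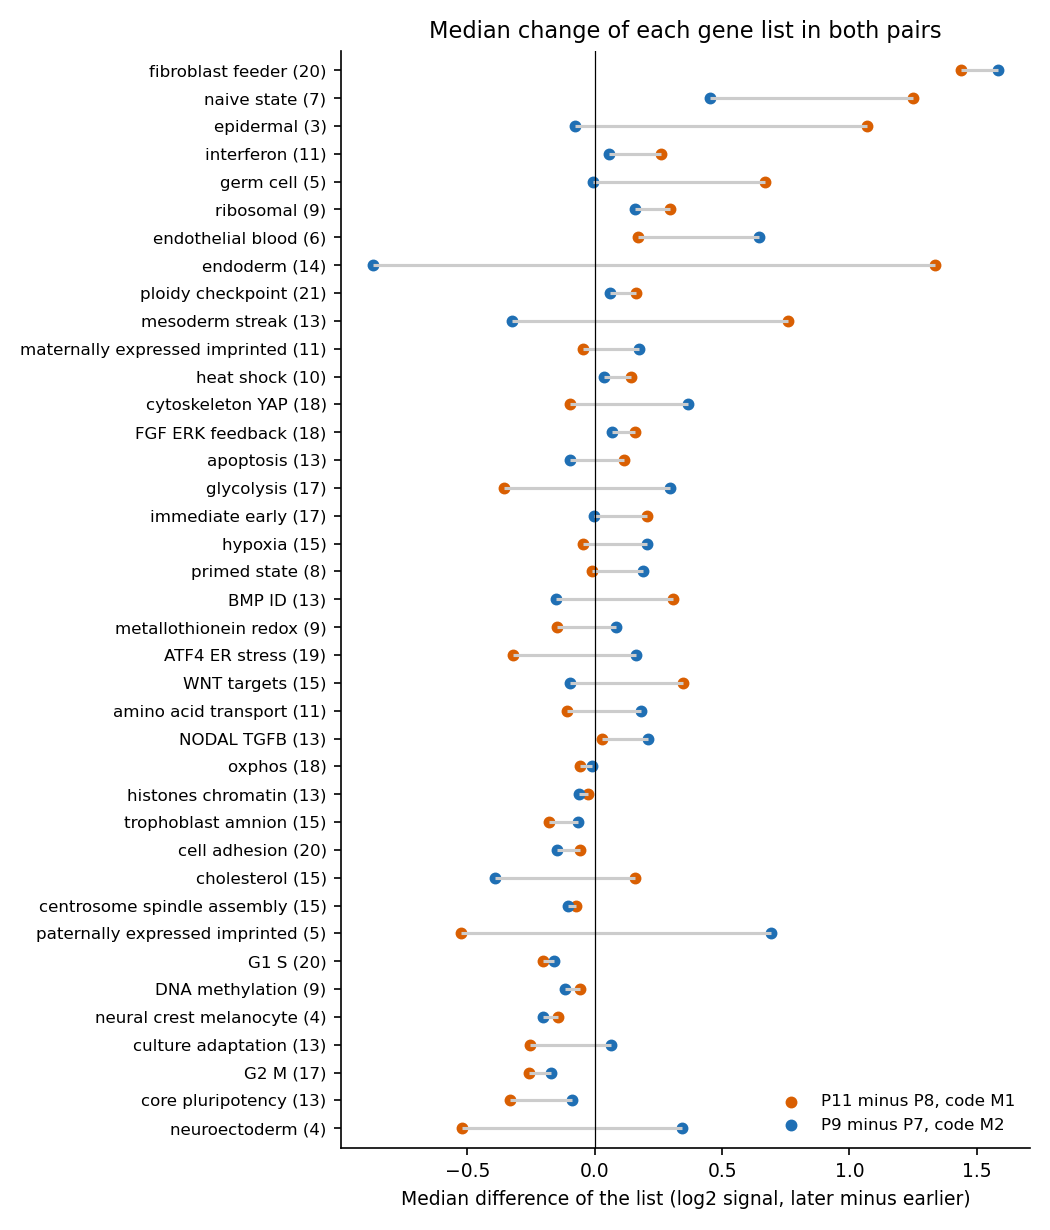
Each row is 1 of 39 gene lists with its number of genes tested, and points give the median log2 difference of the list in code M1 (orange) and code M2 (blue). The fibroblast and feeder list stands highest with both points near 1.5, and the points of the endoderm list lie on opposite sides of 0.

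Endoderm genes went opposite ways in the 2 codes, a difference that was not tested. Of 14 endoderm genes, 11 were higher in code M1 and lower in code M2. Opposite directions of either kind held for 13 of the 14, against 3868 of all 9823 genes. GATA6, an endoderm factor, read 1022 and 4013, then 775 and 244, SOX17 read 524 and 1724, then 365 and 58.4, and EOMES read 1072 and 4709, then 849 and 486. TBXT, a gene of the primitive streak, read 116 and 584, then 115 and 27.1. These genes were chosen after their values were seen, and their adjusted p over both pairs by limma ran from 0.61 to 0.97.

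Among the genes tested, X-linked genes were lower relative to autosomes with passage, while their level stayed above that of the diploid arrays. These genes were kept by their signal on the MPH1 arrays, which bears on the contrast with other arrays. That contrast was not repeated without the filter. Of 333 X-linked genes 46.8% were lower in both pairs and 19.2% higher, against 31.0% and 29.2% of 8613 autosomal genes. The median X-linked difference was -0.09 in code M1 and -0.13 in code M2, below the median of each of 20 autosomes (-0.08 to 0.07 and -0.06 to 0.05). The X median minus the autosome median of signal was 0.58 on P8 and 0.44 on P11, and 0.85 on P7 and 0.66 on P9, against 0.70 on MPH2, -0.06 to -0.02 on the ICSI stem cell arrays and -0.17 and -0.11 on the fibroblast arrays. After quantile normalization 6 autosomes lay below the X in code M1 and 0 in code M2. An exact two-sided permutation test over 2 pairs cannot give a p below 0.5, and no other test of the shift was run. Of the 333 X-linked genes 1 was called, against 70 of 8613 autosomal genes.

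**Figure D5:**
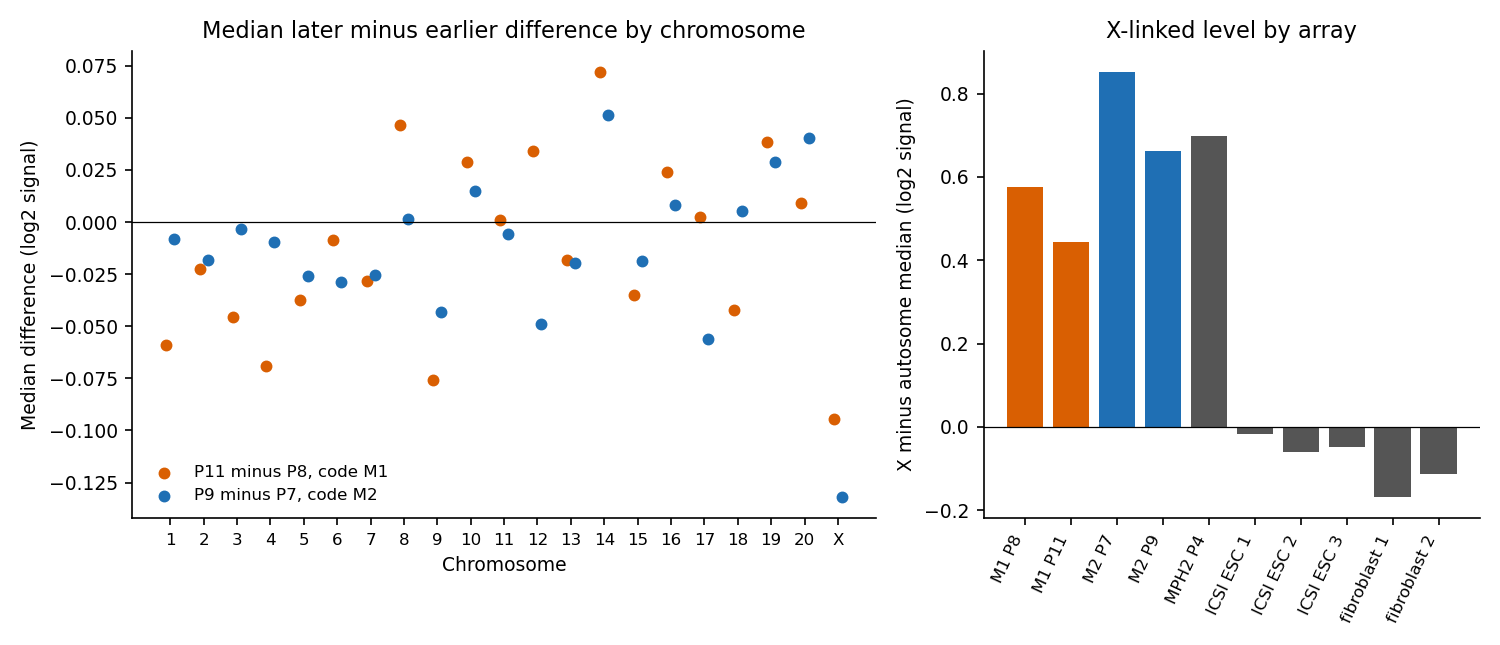
Left, median log2 signal difference, later minus earlier, of the genes of each chromosome in code M1 (orange) and code M2 (blue). Right, bars give the X median minus the autosome median of log2 signal on each array, over the genes kept by their MPH1 signal. Code M1 is in orange, code M2 in blue and the other arrays in grey. The X chromosome has the lowest median in both pairs, and its bars are above 0 on all 5 haploid arrays and lower on the later array of each pair.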

How the data were processed

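Total RNA was amplified with a 3' labelling kit and hybridised to Affymetrix rhesus macaque arrays, per the labels. The deposited values are linear signal intensity per probe set, made by the authors with MAS5 per the submitters' processing notes (release not given). The table holds no detection calls, so signals near or under an array's median may be unexpressed genes. Of 52865 probe sets, 158 controls were left out, and 25335 above the array median on both later or both earlier arrays were tested.

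Log2 signals of the 4 MPH1 arrays were compared with limma 3.58.1 (R 4.3.3), with the code as a fixed block, a variance trend and two-sided tests, adjusted by Benjamini-Hochberg. The fit had 1 residual and 9.45 prior degrees of freedom. The codes pair the arrays by the labels, and deviations of same-coded arrays correlated at 0.187. A gene is its brightest probe set with that symbol alone. Of 762 genes in 39 lists, 547 are named in the annotation and 454 were tested. Chromosomes came from RefSeq T2T-MFA8v1.1. The number of arrays limits the precision.

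The members and lists were chosen with earlier results of these data known. Named genes were the 15 higher and 15 lower with the largest smaller-of-both-pairs difference, up to 3 per list, up to 10 called each way, and POU5F1, SOX2, NANOG, LIN28B, DNMT3B, COL1A1, CDKN1A, SNRPN and PCDH8 (1 further gene of the rule is not reported here), with MMP1, MMP3, IL1B, STC1 and TNC, FN1, TOP2A, SOX17, GATA6, EOMES and TBXT among those added after values were seen. PCDH8 read 6037 and 3687, then 12724 and 16529. On simulated data with 25335 probe sets, 200 of them changed, limma recovered 15% of 2-fold and 52% of 4-fold changes with 3 false calls of 70. The rule of 2-fold in both pairs recovered 32% and 94%, and took 1.05% of unchanged probe sets. The simulated noise was independent between arrays and drawn from the variance trend of the same limma fit. The simulation therefore cannot show how many calls on the real arrays are false.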

Additional observations from a re-analysis of the deposited data

Results flagged for a closer look

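The endoderm list had a median log2 difference of 1.335 in code M1 and of -0.8727 in code M2. Of its 14 tested genes 11 were higher in P11 than in P8 and lower in P9 than in P7. Either kind of opposite movement held for 13 of the 14, against 3868 of all 9823 genes. The paternally expressed imprinted list of 5 genes had medians of -0.5272 and 0.69. Of these genes 2 were higher and 2 lower in both pairs, and only 1 was lower in code M1 and higher in code M2. Each list was picked out because its medians lay on opposite sides of 0 in the 2 pairs. The difference between the codes was not tested, since each code has 1 pair.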

How the results depend on the processing

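The number of calls and their balance of directions depended on the setting. Without the replicate block 3 probe sets were called higher and 0 lower (1745 at an unadjusted p under 0.05). With all 10 arrays in the limma fit, and with no trend in the variance, 0 were called higher and 0 lower (1396 and 2597 unadjusted). Leaving out a code leaves 1 array on each side, so the spread came from the ICSI stem cell and fibroblast arrays and the MPH1 arrays are assumed to vary like them. Without the pair of code M1, which holds P11, or of M2, limma gave 0 and 0 calls (642 and 2341 unadjusted), and 621 to 1278 higher and 258 to 425 lower genes past 2-fold in the single pair left. A slope per passage gave 429 higher and 35 lower calls, centring on array medians 181 higher and 239 lower, and dim signals set to the array median 258 higher. The offset of 32, quantile normalization, the filter at the 75th percentile and the filter on the mean changed no count of calls by 1.5 times. Genes past 2-fold in both pairs numbered 153 higher and 17 lower with the offset, 145 and 60 after quantile normalization, 121 and 74 after centring, 645 and 156 with no filter, 63 and 2 at the 75th percentile, 150 and 6 with the filter on the mean, 131 and 3 with dim signals raised, and 547 and 97 at 1.5-fold. The correlation of the pairs was 0.117 with no filter. X-linked minus autosomal difference averaged -0.0718 after quantile normalization in place of -0.105. The cause of these shifts was not tested. Each of the 26 called genes named by rule kept its direction under every alternative that tested it. Signals near the array median limit the dim genes.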
